A study of Danio rerio with 6 samples.

Results

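Transcripts of 10 genes of myelin and of the cells that make it were followed in 3 wild-type zebrafish samples (WT1 to WT3) and 3 samples homozygous for pikfyve-delta8. This allele, made by CRISPR/Cas9 editing, leaves fish described as deficient in the phosphatidylinositol phosphate kinase domain of Pikfyve, a lipid kinase of endosomes and lysosomes. The genes were chosen by symbol, 6 for myelin proteins (mbpa, mbpb, mpz, plp1a, plp1b and mag) and 4 for lineage factors (sox10, olig1, olig2 and myrf). Each had 1 row among the 25645 genes of the deposited table, and all 10 passed the filter on low counts. The labels give no tissue, age, strain or number of animals per sample. They do not say that samples of a genotype came from separate animals, so each p-value refers to the variation among these 6 libraries alone, and that variation may be technical.

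Myelin is the stacked membrane that glia wrap around axons, made by oligodendrocytes in the central nervous system and by Schwann cells in peripheral nerves. Myelin basic protein holds the inner faces of the membrane together, whereas proteolipid protein and, in fish, myelin protein zero span the membrane of the sheath. The factors Olig2 and Sox10 specify oligodendrocyte precursors, and Myrf switches on myelin genes as the cells mature. In mice, removing Pikfyve from the oligodendrocyte lineage impairs myelination.

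RNA sequencing gave 14677252 to 14949605 estimated counts per sample, so that 1 count stood for 0.0635 to 0.0728 CPM (reads relative to library size, scaled by TMM factors). Of 21104 genes tested, 48.0% differed between the genotypes at an adjusted p under 0.05 (edgeR's quasi-likelihood test with Benjamini-Hochberg adjustment, two-sided), 25.1% higher and 23.0% lower in the mutants. A called gene was thus common in this comparison, and counts of members are read against these shares. The genotypes did not overlap in CPM for 58.8% of genes (30.1% higher and 28.7% lower in the mutants). Mutant samples differed more among themselves than wild-type samples did, with a mean chi-square per gene of 12.2 to 20.3 between mutants against 2.41 to 2.90 between wild-type samples. Log2 fold changes below are mutant minus wild type ± SE, and levels are mean ± SD with n = 3 per genotype.

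Transcripts of mag, mpz, plp1a and plp1b fell in the mutants to between 51.7% and 64.6% of the wild-type level, while mbpa and mbpb did not pass the test. The lineage factors went in different directions, with sox10 higher, olig2 lower, and olig1 and myrf not past the test. In all, 6 of 10 members were called (60.0%, against 48.0% of all genes), 5 of them lower and 1 higher. Lower calls made up 4 of 6 myelin protein genes and 1 of 4 lineage factors, against 23.0% of all genes. The genotypes did not overlap in CPM for 7 of 10 members (58.8% of all genes), 2 of them higher (30.1% of all genes) and 5 lower (28.7%).

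The gene mag encodes myelin-associated glycoprotein, a sialic acid-binding adhesion protein of the membrane facing the axon. Wild-type samples held 36.1, 36.6 and 40.4 CPM and mutants 21.2, 17.9 and 19.4 CPM. The groups were far apart, and the log2 fold change was -0.95 ± 0.10 (edgeR adjusted p = 4.902e-05). The gene mpz encodes myelin protein zero, an adhesion protein of compact myelin. It stood at 36.03, 39.3 and 36.9 CPM in wild type and at 18.7, 23.9 and 16.2 CPM in the mutants. Every mutant lay below every wild-type sample, with a log2 fold change of -0.93 ± 0.13 (edgeR adjusted p = 0.000332).

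The paralogs plp1a and plp1b encode proteolipid proteins of the DM20 family, tetraspan membrane proteins of myelin. The plp1a level was 11.1, 11.98 and 11.2 CPM in wild type and 7.47, 6.12 and 7.60 CPM in the mutants, without overlap. The log2 fold change was -0.69 ± 0.13 (edgeR adjusted p = 0.00174). The level of plp1b was 24.8, 23.8 and 26.8 CPM in wild type and 14.5, 19.2 and 15.0 CPM in the mutants, again without overlap. Its log2 fold change was -0.63 ± 0.12 (edgeR adjusted p = 0.00223). Reads of plp1a per read of plp1b were 0.449, 0.503 and 0.419 in wild type and 0.515, 0.318 and 0.507 in the mutants, overlapping ranges (exact permutation test, two-sided, p = 1.0; n = 3 per genotype). In mutant 2 plp1b was highest and plp1a lowest of the mutant samples.

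**Figure D1:**
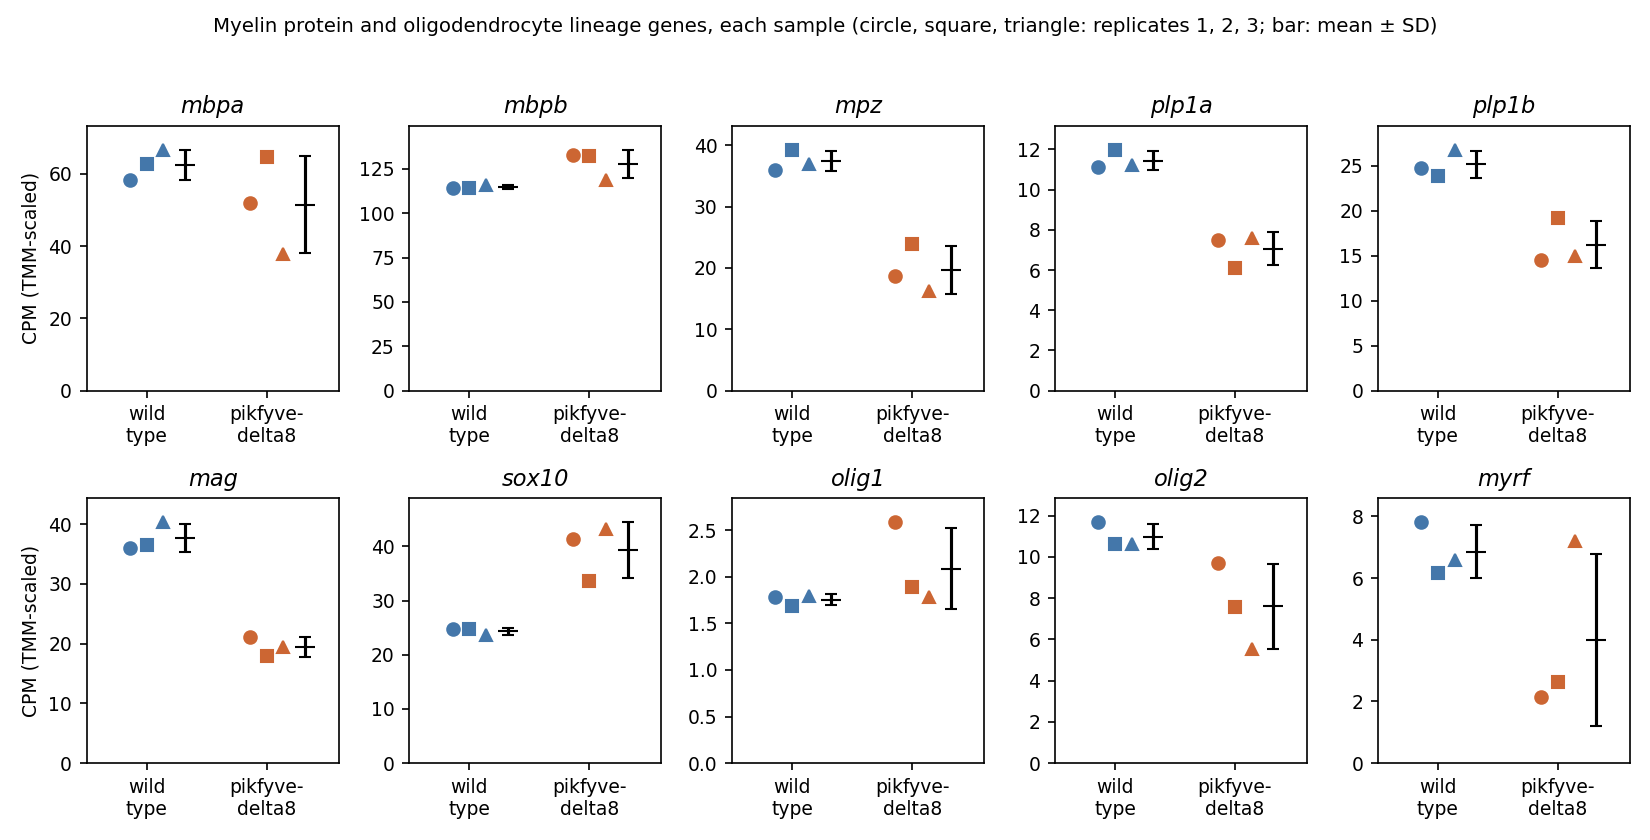
Level of each of the 10 genes in CPM (TMM-scaled, axes from 0) in 3 wild-type (blue) and 3 pikfyve-delta8 (orange) samples, with circle, square and triangle for replicates 1, 2 and 3 and a bar for mean ± SD. The genotypes do not overlap for mbpb, mpz, plp1a, plp1b, mag, sox10 and olig2, and mutant 3 stands at the wild-type level for myrf.

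The myelin basic protein paralogs behaved otherwise. The level of mbpa was 58.3, 62.8 and 66.6 CPM in wild type and 51.8, 64.6 and 37.9 CPM in the mutants. Mutants 1 and 3 lay below wild type and mutant 2 within it, and the log2 fold change was -0.28 ± 0.17, with a 95% interval of -0.67 to 0.10 (edgeR adjusted p = 0.200). With pikfyve-delta8 replicate 2 left out, mbpa was called lower at a log2 fold change of -0.48 (edgeR adjusted p = 0.0131), whereas with pikfyve-delta8 replicate 3 left out it was -0.12 (edgeR adjusted p = 0.361). It was also called lower with library size alone (log2 fold change -0.43, edgeR adjusted p = 0.0369) and on the log2(FPKM + 1) scale (-0.45, limma adjusted p = 0.0309), the 17 alternatives giving adjusted p between 0.0131 and 0.381.

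The most abundant member, mbpb, had nearly the same number of reads in both genotypes, 1795, 1765 and 1813 in wild type and 1849, 1812 and 1731 in the mutants. After scaling this was 114.1, 114.3 and 116.1 CPM against 132.8, 131.9 and 118.6 CPM, so all mutants lay above all wild-type samples. The log2 fold change of 0.15 ± 0.07 did not pass the test (95% interval -0.0070 to 0.31, edgeR adjusted p = 0.104). Without pikfyve-delta8 replicate 3 mbpb was called higher, with a log2 fold change of 0.19 (edgeR adjusted p = 0.0195). The estimate shrank with the scaling, to 0.09 with upper-quartile scaling (edgeR adjusted p = 0.306) and to 0.0081 with library size alone (edgeR adjusted p = 0.925).

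In the deposited FPKM the order of the genotypes turned round for mbpb. The deposited FPKM, which divides by the length of the transcripts that reads were assigned to, was 99.3, 97.2 and 98.0 in wild type and 86.7, 84.9 and 78.1 in the mutants, again without overlap. On the log2(FPKM + 1) scale mbpb was called lower, with a log2 fold change of -0.24 (limma adjusted p = 0.0166). On that scale the median of all genes was itself -0.12, against 0.0039 for CPM. With TMM scaling kept and length entered as offsets, the mbpb estimate was -0.09 and was not called (edgeR adjusted p = 0.376). The effective length implied by counts and FPKM was 1227, 1213 and 1245 bases in the wild-type samples and 1434, 1431 and 1510 bases in the mutants. Reads of mbpb were therefore assigned to transcripts that were on average 1.19-fold longer in the mutants, a ratio of 1.166 to 1.198 with any 1 sample left out.

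Among 16799 genes with an effective length in all samples, 1.15% shifted by at least 1.1-fold without overlap between the genotypes, 0.512% towards longer transcripts, and mbpb ranked 44th from the longest shift. For mbpa the effective length hardly moved, at 1613 to 1620 bases in wild type and 1618 to 1624 bases in the mutants. Of the 9 members with an effective length, olig1 was the other one past this limit. Its length was 1118, 1436 and 1208 bases in wild type and 1441 bases in each mutant, from 26 to 36 reads per sample. In mice the Mbp gene has, besides the transcripts for myelin basic protein, longer Golli transcripts from an upstream start that are also found in neurons and immune cells. The deposited table gives 1 value per gene, and which mbpb transcripts took the reads was not measured here.

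The reads of mbpa per read of mbpb, which do not depend on the scaling, did not overlap between the genotypes, at 0.511, 0.549 and 0.574 in wild type and 0.391, 0.490 and 0.320 in the mutants. An exact permutation test over the samples gave p = 0.1, the smallest that 3 against 3 samples allow (two-sided, adjusted p = 0.15 over 3 paralog pairs). In FPKM the same ratio was 0.387 to 0.442 in wild type and 0.297 to 0.433 in the mutants, and the groups overlapped.

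**Figure D2:**
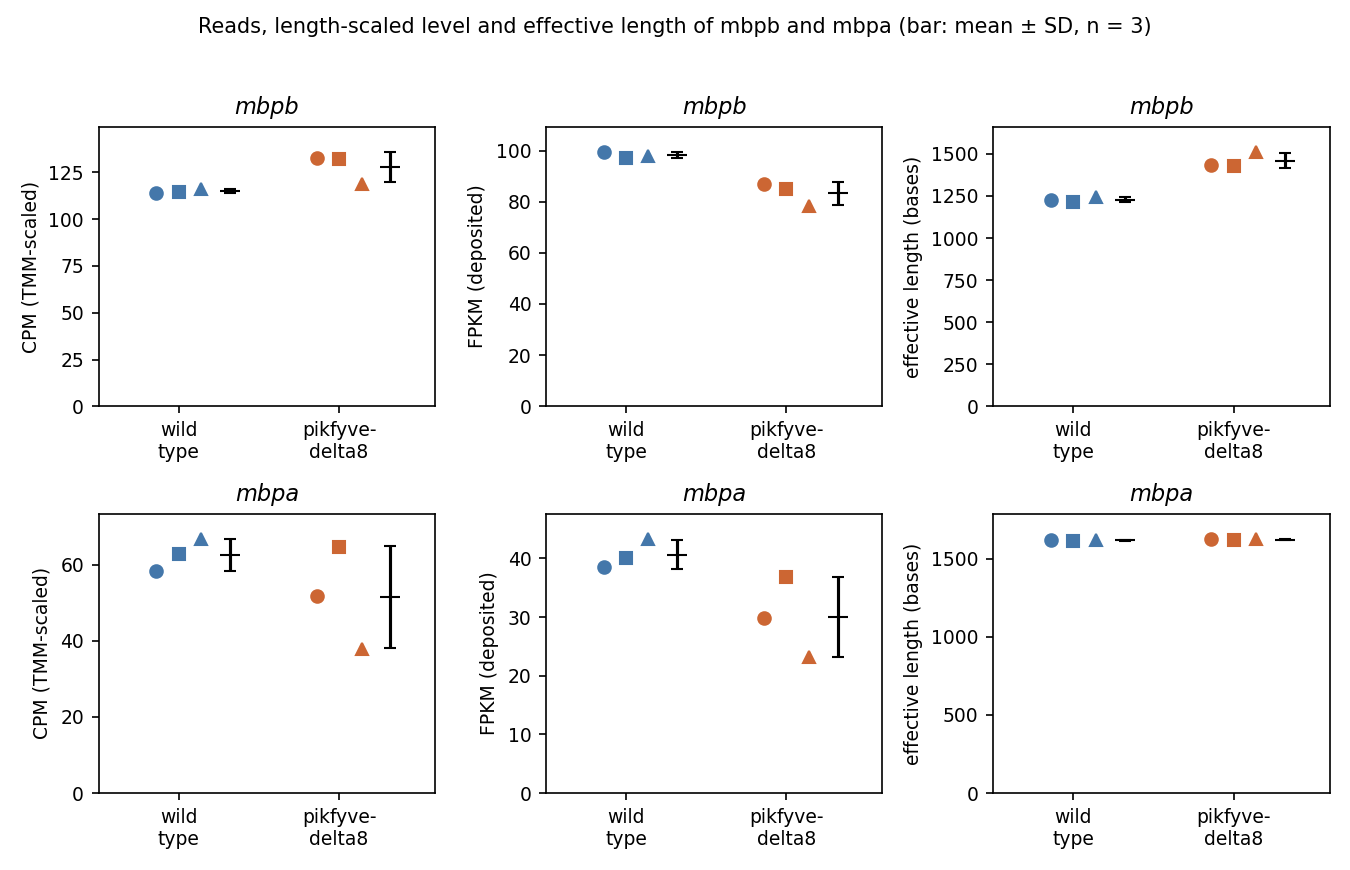
CPM (TMM-scaled), deposited FPKM and effective length in bases (axes from 0) of mbpb (top) and mbpa (bottom) in 3 wild-type (blue) and 3 pikfyve-delta8 (orange) samples, with circle, square and triangle for replicates 1, 2 and 3 and a bar for mean ± SD. For mbpb the mutants lie above wild type in CPM, below it in FPKM and at 1431 to 1510 against 1213 to 1245 bases in effective length, while the mbpa length stays between 1613 and 1624 bases.

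Of the lineage factors, sox10 rose. It encodes an HMG-box factor needed by oligodendrocytes and Schwann cells, and also by pigment cells and other neural crest derivatives and by the otic vesicle. Its level was 24.7, 24.8 and 23.6 CPM in wild type and 41.3, 33.6 and 43.2 CPM in the mutants. All mutants lay above all wild-type samples, by 0.69 ± 0.10 on the log2 scale or 1.62-fold (edgeR adjusted p = 0.000509). The gene kept its call and its direction in all 17 alternatives, with log2 fold changes of 0.49 to 0.80.

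The neighbouring bHLH genes olig1 and olig2 differed in depth. The gene olig2, needed for oligodendrocyte precursors and for motor neurons, stood at 11.7, 10.6 and 10.6 CPM in wild type and at 9.69, 7.57 and 5.55 CPM in mutant samples. The groups did not overlap, with a log2 fold change of -0.53 ± 0.18 (edgeR adjusted p = 0.0355). The call was lost without wild type replicate 1 (edgeR adjusted p = 0.118), replicate 2 (0.0819) or replicate 3 (0.0822) and without pikfyve-delta8 replicate 2 (0.0635), in a range of 0.00566 to 0.118 over all alternatives.

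The gene olig1, which acts in oligodendrocyte maturation, had 28, 26 and 28 reads in wild type and 36, 26 and 26 in the mutants. At this depth no difference was detectable, with a log2 fold change of 0.25 ± 0.24 and a 95% interval of -0.29 to 0.78 (edgeR adjusted p = 0.418). Its estimate was -0.07 on the log2(FPKM + 1) scale. Reads of olig2 per read of olig1 were 6.57, 6.31 and 5.93 in wild type and 3.75, 4.00 and 3.12 in the mutants, without overlap (exact permutation test over 3 against 3 samples, two-sided, p = 0.1, the smallest possible; adjusted p = 0.15).

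The gene myrf encodes a membrane-anchored transcription factor that drives myelin genes and is cut free to enter the nucleus. Its level was 7.82, 6.15 and 6.60 CPM in wild type and 2.15, 2.62 and 7.19 CPM in the mutants. Mutants 1 and 2 had 30 and 36 reads, against 95 to 123 in wild type, whereas mutant 3 had 105. With all samples the log2 fold change was -0.77 ± 0.40 (95% interval -1.70 to 0.16, edgeR adjusted p = 0.150). Without pikfyve-delta8 replicate 3 it was -1.53 and called (edgeR adjusted p = 0.000124), so that 1 library decided the call, with adjusted p between 0.000124 and 0.322 among the 17 alternatives. The same library had the lowest olig2, mpz and mbpa of the 6 samples and the highest sox10.

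**Figure D3:**
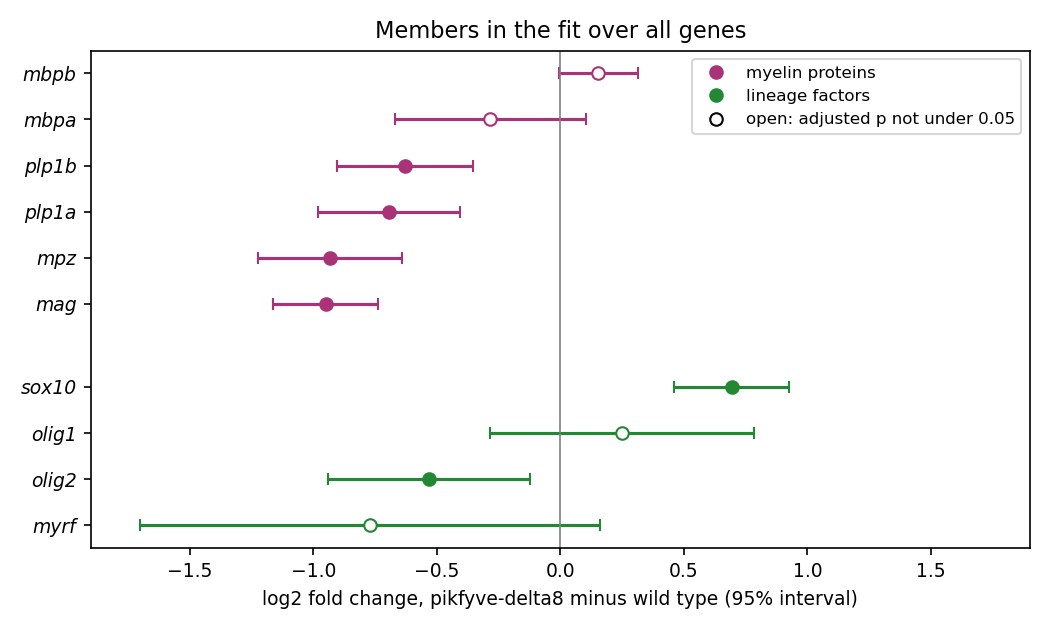
Log2 fold change, pikfyve-delta8 minus wild type, of the 6 myelin protein genes (purple) and 4 lineage factor genes (green) from the edgeR fit over all genes, with 95% intervals and open symbols where adjusted p was not under 0.05. The genes mag, mpz, plp1a and plp1b lie between -0.95 and -0.63 with intervals below 0, sox10 lies at 0.69, and the myrf interval is the widest.

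Set side by side, the myelin protein genes had log2 fold changes of -0.95 to 0.15 with a median of -0.66, and the lineage factors of -0.77 to 0.69 with a median of -0.14, beside a median of 0.0039 over all genes tested. The summed level of the 6 myelin protein genes was 280.4, 288.8 and 298.0 CPM in wild type and 246.5, 263.7 and 214.7 CPM in the mutants, without overlap. The summed level of the 4 lineage factors was 46.0, 43.2 and 42.6 CPM in wild type and 55.7, 45.6 and 57.7 CPM in the mutants, with overlap. The first sum divided by the second was 6.095, 6.68 and 7.00 in wild type and 4.42, 5.78 and 3.72 in the mutants. No test is given for these sums, because the genes were chosen with results known.

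Single genes weighed heavily in both sums. Transcripts of sox10 made up 53.7% to 57.3% of the lineage sum in wild type and 73.5% to 74.9% in the mutants. Those of mbpb made up 39.0% to 40.7% of the myelin sum in wild type and 50.03% to 55.2% in the mutants. In FPKM the ratio was 8.44 to 9.60 in wild type and 5.74 to 8.54 in the mutants, so that mutant 2 lay within the wild-type range.

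**Figure D4:**
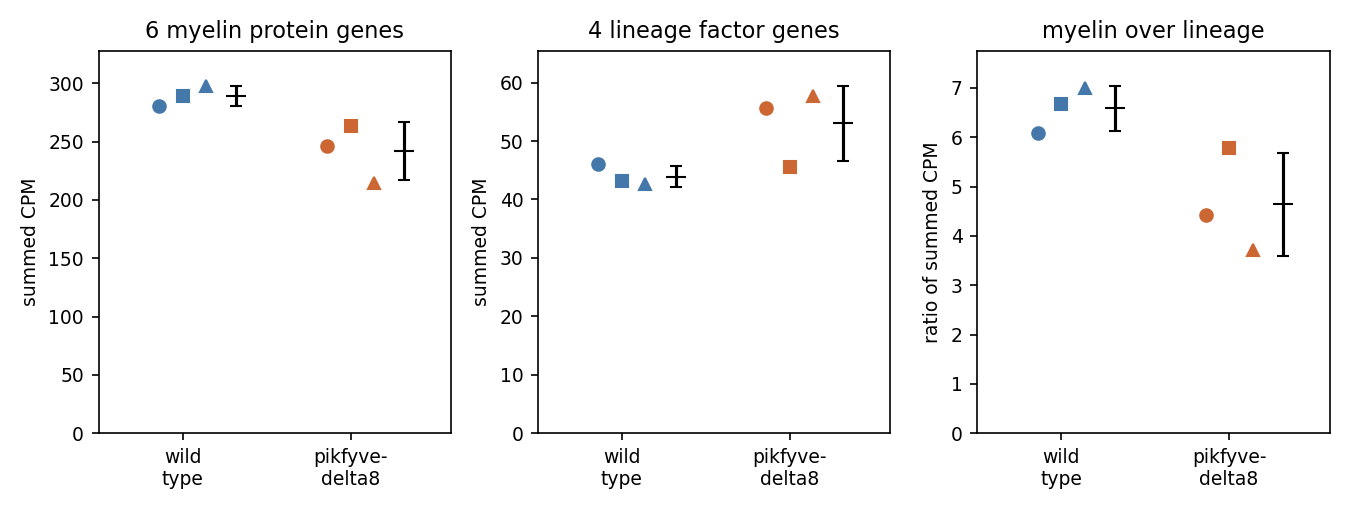
Summed CPM (TMM-scaled, axes from 0) of the 6 myelin protein genes and of the 4 lineage factor genes, and the ratio of these sums, in 3 wild-type (blue) and 3 pikfyve-delta8 (orange) samples, with circle, square and triangle for replicates 1, 2 and 3 and a bar for mean ± SD. The ratio was 6.095 to 7.00 in wild type and 3.72 to 5.78 in the mutants.

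Levels of different genes can be compared per length, in FPKM. In wild type mbpb was highest at 98.2 ± 1.06 FPKM, followed by mbpa at 40.6 ± 2.45, plp1b at 17.9 ± 1.00, mpz at 14.9 ± 0.325 and mag at 12.05 ± 0.809 FPKM. Then came sox10 at 8.71 ± 0.275 and olig2 at 8.30 ± 0.600 FPKM, whose ranges overlapped. The gene plp1a stood at 2.80 ± 0.0700 FPKM, above myrf at 1.92 ± 0.269 and olig1 at 1.49 ± 0.252 FPKM, which overlapped each other. Every other pair of neighbours in this order was separated.

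In the mutants the order began with mbpb at 83.3 ± 4.53 and mbpa at 30.0 ± 6.79 FPKM, and sox10 moved from 6th to 3rd place at 12.8 ± 2.09 FPKM. Its range overlapped that of plp1b at 10.5 ± 1.44 FPKM. The genes mpz, mag and olig2 followed at 6.93 ± 1.503, 5.69 ± 0.557 and 5.17 ± 1.29 FPKM. The range of mag overlapped those of mpz and olig2, whereas plp1b and mpz were separated, as were olig2 and plp1a. The last 3 were plp1a at 1.57 ± 0.232, olig1 at 1.37 ± 0.266 and myrf at 1.03 ± 0.759 FPKM, with overlapping ranges.

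Other proteins of the sheath and its relatives went both ways. Of 20 tested, 6 rose (30.0%, against 25.1% of all genes) and 8 fell (40.0%, against 23.0%), with a median log2 fold change of -0.08. The genes of the M6 glycoproteins, relatives of proteolipid protein that neurons also express, fell in all 4 copies. Among them gpm6ab fell from 195.0 ± 4.08 to 115.1 ± 10.1 CPM (edgeR adjusted p = 6.5e-05), gpm6aa from 624 ± 13.0 to 424 ± 48.8 CPM and gpm6ba from 86.4 ± 2.79 to 56.3 ± 9.39 CPM. The 4th copy, gpm6bb, had an adjusted p of 0.0383, which ran from 0.00728 to 0.158 over the alternatives. The tetraspanin gene tspan2a fell from 53.7 ± 1.11 to 37.0 ± 3.16 CPM.

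The genes that rose included relatives of mpz that are expressed well beyond myelin, mpzl1l from 33.9 ± 1.13 to 58.0 ± 4.48 CPM and mpzl2b from 18.6 ± 1.63 to 27.7 ± 3.12 CPM. The deacetylase gene sirt2 rose from 40.6 ± 1.84 to 52.5 ± 1.29 CPM. Beside the 8 genes of this list that fell, cnp and cldn19 stood close to their wild-type level. They need not be confined to myelinating cells, and they and cldnk were named after their values were seen. The cyclic nucleotide phosphodiesterase gene cnp was at 65.9 ± 4.17 and 66.6 ± 6.18 CPM (log2 fold change 0.02 ± 0.09) and the claudin gene cldn19 at 94.7 ± 2.92 and 94.7 ± 4.38 CPM. Claudin k (cldnk) fell from 16.6 ± 0.269 to 13.2 ± 1.54 CPM (edgeR adjusted p = 0.0322, in a range of 0.00258 to 0.101 over the alternatives). The sheath protein gene pmp22b fell from 169.3 ± 0.451 to 143.3 ± 8.70 CPM (edgeR adjusted p = 0.0192, in a range of 0.00133 to 0.0685 over the alternatives). Its paralog pmp22a was not called, at 75.3 ± 2.81 and 72.6 ± 10.2 CPM (edgeR adjusted p = 0.688). The gene gldn, named after its values were seen, was called lower, with 53 reads in wild type and 21 in the mutants in all. Its log2 fold change was -1.18 ± 0.43 (edgeR adjusted p = 0.0447). Without any 1 wild-type sample the list held 4 lower genes in place of 8.

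Genes for the lipids of myelin, many of them active in other membranes too, were mostly higher. Of 12 tested 8 rose and 1 fell (66.7% higher, against 25.1% of all genes), with a median of 0.81. The gene ugt8 encodes the galactosyltransferase that makes galactosylceramide, the main glycolipid of myelin, and it rose from 26.0 ± 2.02 to 44.3 ± 3.46 CPM (edgeR adjusted p = 0.000139). The fatty acid hydroxylase gene fa2h rose from 2.80 ± 0.316 to 5.06 ± 0.307 CPM. Levels of the elongase gene elovl1b were 51.3 ± 3.04 CPM in wild type and 127.5 ± 4.84 CPM in mutants, and those of the ceramide synthase gene cers2b 7.82 ± 0.601 and 23.7 ± 6.90 CPM, both called higher. The gene that fell was smpd3, a neutral sphingomyelinase gene, from 16.4 ± 0.291 to 8.38 ± 0.384 CPM.

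Of 29 other transcription factor genes that act in glial lineages, though not only there, 5 rose and 12 fell, with a median of -0.20. These shares were 17.2% higher and 41.4% lower, against 25.1% and 23.0% of all genes. The part of neurons and other cells in these changes was not tested. The POU factor gene pou3f1 fell from 54.4 ± 2.92 to 34.4 ± 3.59 CPM, as did pou3f2b, at 45.1 ± 1.68 CPM in wild type and 27.4 ± 2.18 CPM in mutants. The gene id4, an inhibitor of bHLH factors, fell from 21.4 ± 0.235 to 13.3 ± 2.00 CPM. The zinc finger gene egr2a rose from 5.62 ± 0.821 to 18.4 ± 6.86 CPM. Its paralog egr2b, the krox20 gene needed for Schwann cell myelin in mice, was called in the other direction, at 6.85 ± 1.53 CPM in wild type and 4.30 ± 0.812 CPM in mutants (edgeR adjusted p = 0.0228). That call was lost without wild type replicate 2 or 3 and without pikfyve-delta8 replicate 1, with adjusted p between 0.00779 and 0.111 over the alternatives.

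Among relatives of the lineage factors, sox9b rose from 25.2 ± 0.290 to 38.1 ± 9.13 CPM (edgeR adjusted p = 0.00935), with estimates that were not whole numbers. The paralog sox9a was called higher too, with a log2 fold change of 0.30 ± 0.10 (edgeR adjusted p = 0.0289), but lost the call in 9 of 17 alternatives, among them those without any 1 wild-type sample or pikfyve-delta8 replicate 1. Levels of sox8a were 2.54 ± 0.317 and 2.50 ± 0.545 CPM, those of sox8b 2.22 ± 0.111 and 3.01 ± 0.908 CPM, those of olig3 2.38 ± 0.408 and 2.60 ± 0.176 CPM and those of olig4 1.22 ± 0.187 and 1.19 ± 0.0773 CPM, none of these 4 past the test. The gene sox8b was called higher in 1 of 17 alternatives. The higher count of 5 was 2 without wild type replicate 3, 3 without wild type replicate 1 or 2 or pikfyve-delta8 replicate 1, and 2 with library size alone. The lower count of 12 was 7 without wild type replicate 3.

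Of 14 genes of oligodendrocyte precursors, not all of them confined to these cells, 9 fell and 2 rose, with a median of -0.45. These shares were 64.3% lower and 14.3% higher, against 23.0% and 25.1% of all genes. How far precursors or other cells account for these changes was not tested. The G protein-coupled receptor gene gpr17, which marks differentiating precursors in mice, fell from 7.52 ± 0.790 to 3.80 ± 0.756 CPM (edgeR adjusted p = 0.00168; named after its values were seen). The phosphatase inhibitor gene ppp1r14ba fell from 39.4 ± 2.69 to 18.4 ± 2.91 CPM, and lingo1b, a membrane protein gene shared with neurons, from 20.1 ± 1.07 to 12.02 ± 1.33 CPM. The gene enpp6, a phosphodiesterase gene that marks newly forming oligodendrocytes in mice, was higher, at 6.09 ± 0.976 and 8.97 ± 0.582 CPM (edgeR adjusted p = 0.0131). Leaving out wild type replicate 2 ended that call (edgeR adjusted p = 0.0612), as did library size alone. The receptor phosphatase gene ptprz1b rose from 78.2 ± 3.01 to 105.6 ± 4.32 CPM. The platelet-derived growth factor receptor gene pdgfra, also expressed in mesenchyme, stood at 46.3 ± 1.43 and 40.5 ± 4.35 CPM, with a log2 fold change of -0.19 ± 0.09 (edgeR adjusted p = 0.102). It was called lower in 5 of 17 alternatives. The higher count of 2 was 1 without wild type replicate 2.

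Signals between axon and glia were divided, with 3 of 18 tested genes higher and 8 lower and a median of -0.03. These shares were 16.7% higher and 44.4% lower, against 25.1% and 23.0% of all genes. The neuregulin gene nrg1, an axonal ligand that drives Schwann cells, rose from 15.1 ± 0.814 to 21.8 ± 2.65 CPM (edgeR adjusted p = 0.00416). Its receptor gene erbb3b stood at 38.2 ± 1.64 and 41.4 ± 4.03 CPM (log2 fold change 0.12 ± 0.09, edgeR adjusted p = 0.293). The Src family kinase gene fyna, which acts in oligodendrocytes and in neurons, fell from 51.2 ± 2.16 to 31.5 ± 2.59 CPM. The higher count of 3 was 1 without wild type replicate 3 and 1 with library size alone.

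Genes of the node of Ranvier and the adjoining paranode, which belong largely to the axon, were mostly lower. Of 19 tested 13 fell and 1 rose (68.4% lower, against 23.0% of all genes), with a median of -0.58. The contactin gene cntn1b fell from 34.2 ± 2.38 to 17.1 ± 1.70 CPM and the nodal sodium channel gene scn8ab from 45.9 ± 0.969 to 22.7 ± 5.25 CPM. The exception was epb41l3b, a membrane skeleton gene, at 53.8 ± 1.76 to 70.4 ± 3.88 CPM.

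Markers of other cells were read beside the members, because bulk RNA cannot tell fewer cells of a type from less RNA per cell. Neuron markers fell in 26 of 27 tested genes (96.3% lower, against 23.0% of all genes), with a median of -0.90. Their summed level was 3473 to 3580 CPM in wild type and 1736 to 2244 CPM in the mutants. The median of the myelin protein genes, -0.66, lay between that of neurons and that of all genes. Mutant 3 had the highest neuron sum of the mutants and the lowest myelin protein sum, with the lowest mbpa, mbpb and mpz. Of the called myelin protein genes besides mpz, plp1a was highest in this mutant and mag and plp1b lay between the other mutants. The part of neurons in the fall of mag, mpz, plp1a and plp1b was not tested. Among motor neuron genes, which share the olig2 lineage, 6 of 14 fell and 0 rose (42.9% lower, against 23.0% of all genes). Those with the smallest p, lhx1a, slc18a3a and isl2b, had log2 fold changes of -0.93, -0.73 and -0.62. The other 8 were not called, and they were named after their values were seen. Log2 fold changes of mnx1, mnx2a, mnx2b, lhx3 and isl2a were 0.09, 0.26, 0.05, 0.09 and 0.04. Those of slc18a3b, prph and lhx4 were -0.36, -0.14 and -0.13. The sum of the list was 263 to 274 CPM in wild type and 192 to 212 CPM in the mutants. The part of motor neurons in the lower olig2 level was not tested.

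Markers of cells that express sox10 outside myelinating glia went both ways. Of 25 tested genes of neural crest and pigment cells 4 rose and 7 fell, with a median of 0.08. In all 44.0% were called, against 48.0% of all genes. The share that fell was 28.0%, against 23.0% of all genes, and the share that rose lay below the 25.1% of all genes. Their summed level overlapped, at 521 to 551 CPM in wild type and 467 to 567 CPM in the mutants. The melanosome gene pmela rose from 44.2 ± 3.04 to 69.1 ± 6.49 CPM and the iridophore gene pnp4a fell from 18.6 ± 0.804 to 5.93 ± 1.65 CPM. The crest factor gene foxd3 stood at 17.0 ± 1.09 and 18.0 ± 2.68 CPM (edgeR adjusted p = 0.630). The crest gene crestin was at 4.83 ± 0.648 and 6.41 ± 0.143 CPM, without overlap (log2 fold change 0.41 ± 0.15, edgeR adjusted p = 0.0516). It was called higher in 3 of 17 alternatives. Both were named after their values were seen. The higher count of 4 was 2 without wild type replicate 1 or 3 and 7 without pikfyve-delta8 replicate 2.

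Of 11 otic epithelium genes 2 rose and 1 fell (18.2% higher and 9.09% lower, against 25.1% and 23.0% of all genes). Their sum was 391 to 406 CPM in wild type and 466 to 838 CPM in the mutants. Most of that sum was the otolith matrix gene stm, at 245.1 ± 8.09 and 486 ± 185 CPM, whose call was lost in 10 of 17 alternatives. The claudin gene cldn7b, which is expressed in many epithelia, rose from 48.1 ± 5.52 to 111.9 ± 15.2 CPM. The higher count of 2 was 1 without any of wild type replicates 1 to 3 or without pikfyve-delta8 replicate 1 or 3. The part of crest, pigment and otic cells in the higher sox10 level was not tested.

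Astroglial genes were mixed, with 4 of 18 tested higher and 5 lower and a median of -0.04. These shares, 22.2% higher and 27.8% lower, were near the 25.1% and 23.0% of all genes. Their sum was 2329 to 2356 CPM in wild type and 2698 to 2973 CPM in the mutants. The glutamine synthetase genes glula and glulb, which oligodendrocytes also express in mice, both rose. Wild-type and mutant levels were 293 ± 8.76 and 531 ± 96.9 CPM for glula, and 247.5 ± 11.2 and 524 ± 21.1 CPM for glulb. Together the means of glula and glulb rose by more CPM than the mean of the sum. Lower genes included slc1a2a, fabp7a and her4.2. Over the 17 alternatives their log2 fold changes were -1.80 to -1.48, -0.66 to -0.41 and -1.34 to -0.80. The higher count of 4 was 7 without pikfyve-delta8 replicate 3, and the lower count of 5 was 3 without wild type replicate 1 or 2.

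Microglia and macrophage genes, which mark the cells that clear myelin debris, rose in 5 and fell in 4 of 14 tested, with a median of 0.20. These shares were 35.7% higher and 28.6% lower, against 25.1% and 23.0% of all genes. Their sum was 1318 to 1414 CPM in wild type and 1797 to 2061 CPM in the mutants. The largest part of it was apoeb, from 1154 ± 51.7 to 1657 ± 124 CPM, so that the sum largely followed this 1 gene. The leukocyte gene lcp1 rose from 15.0 ± 1.59 to 53.5 ± 8.62 CPM and the macrophage perforin gene mpeg1.1 fell from 7.16 ± 0.663 to 1.97 ± 0.199 CPM. Also called were spi1b and spi1a, both higher, and aif1l and marco, both lower. The call of marco was lost in 3 of 17 alternatives. The microglial receptor gene p2ry12 was near the floor, with 25 reads in wild type and 13 in the mutants in all. The lower count of 4 was 2 without any 1 wild-type sample. No marker of these 6 lists was at 0 throughout a genotype, and the part of leukocytes in the mbpb length shift was not tested.

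**Figure D5:**
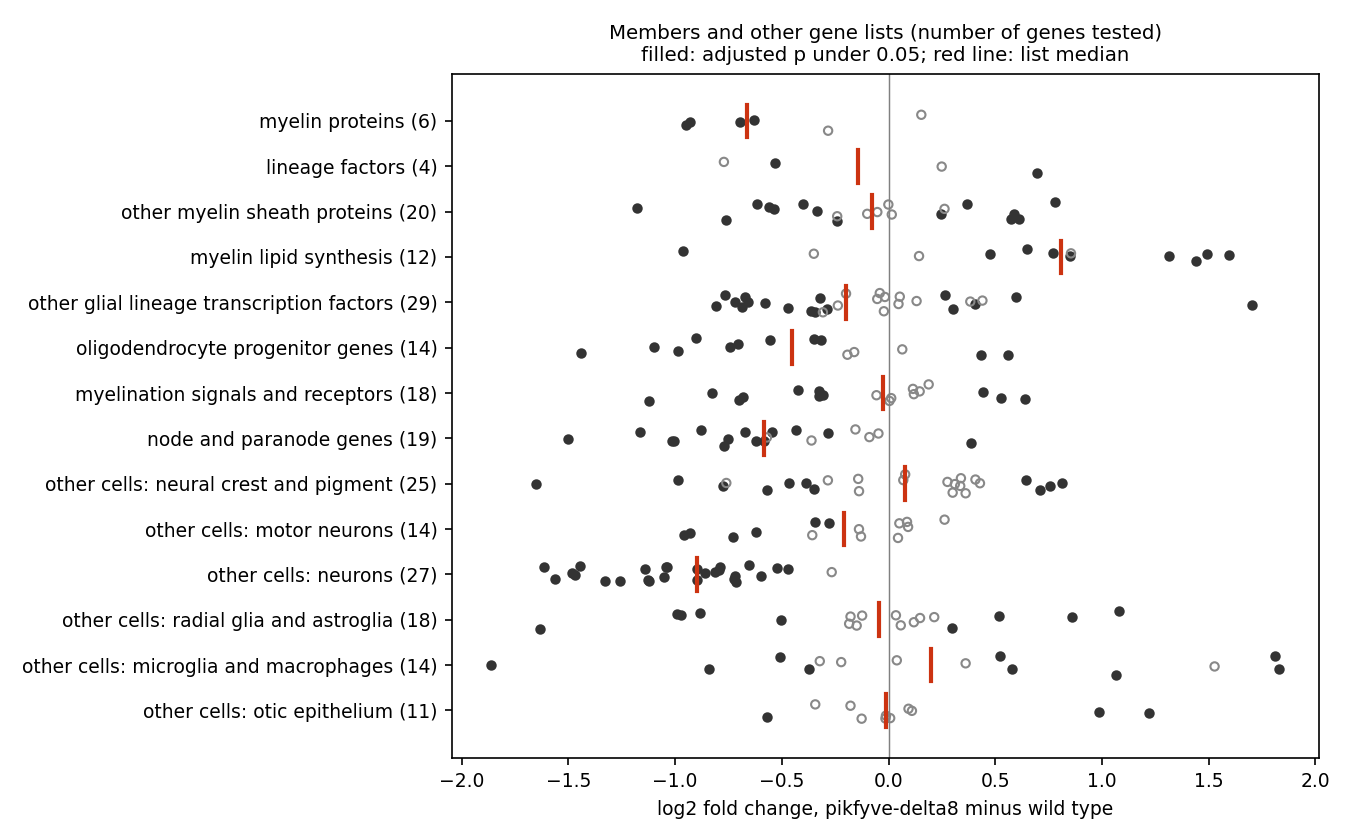
Log2 fold change, pikfyve-delta8 minus wild type, of every tested gene in the 2 classes of members and in 12 other gene lists (number tested in brackets), filled where the edgeR adjusted p was under 0.05, with a red line at each list's median. Neurons have the lowest median at -0.90, followed by the myelin proteins at -0.66 and node genes at -0.58, and lipid synthesis genes have the highest at 0.81.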

How the data were processed

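Values came from a gene table with 25645 rows. Its columns hold, per the file headers, a read count, an FPKM and a TPM for each of 6 samples. Software listed in the submitters' processing notes comprises RSEM 1.3.1, Bowtie2 and DESeq2 1.4.5, and the build is GRCz11, with no role or order stated. The deposited counts are estimated counts, since 10.7% to 11.6% of a sample's values are not whole (tolerance 0.005). Those of the 10 members were whole. The deposited FPKM and TPM were computed by the authors. Strandedness of the libraries is not stated, so sense and antisense reads cannot be told apart.

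Groups and replicate numbers came from the titles. Estimated counts were rounded and fitted with edgeR 4.0.16 (R 4.3.3) over all 6 samples, with filterByExpr, TMM, the robust quasi-likelihood test on genotype and Benjamini-Hochberg adjustment over 21104 genes at 0.05. SE is the log2 fold change divided by the square root of F. The fit was tested on simulated counts, drawn with the spread of the wild-type samples alone and with few genes changed. Such counts cannot show how the fit behaves with the larger spread of the mutants. Effective length is the count divided by FPKM and total count, scaled to the sample's median, for genes with at least 10 counts and an FPKM of at least 1 in every sample. Paralog ratios of counts were compared by an exact permutation test.

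The members and gene lists were chosen with earlier results of these data known. List names absent from the table were not analysed here. Members are all named. From each other list up to 3 called genes per direction with the smallest p, the most abundant gene and relatives of members could be named. Genes outside this rule (cnp, cldn19, cldnk, gldn, fa2h, egr2b, gpr17, pdgfra, erbb3b, foxd3, crestin, p2ry12, mnx1, mnx2a, mnx2b, lhx3, isl2a, slc18a3b, prph, lhx4) were chosen after their values were seen. Alternatives were other scalings and filters, a block, each sample left out, DESeq2 1.42.0, limma 3.58.1 (voom, and trend on FPKM with pseudocounts of 1 and 0.1) and length offsets. RefSeq (GRCz12tu) served for gene names and neighbours. Figures used matplotlib 3.10.9.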

Additional observations from a re-analysis of the deposited data

How the results depend on the processing

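The calls of mag, mpz, plp1a, plp1b and sox10 and their directions were the same in all 17 alternatives. The log2 fold change of mbpb changed sign on the FPKM scale and was called lower there, at -0.24 with a pseudocount of 1 and -0.24 with a pseudocount of 0.1 (limma adjusted p = 0.0166 in both), and it was -0.09 with length offsets (edgeR adjusted p = 0.376). Length enters these settings by construction. Members called lower numbered 4 to 6 and those called higher 1 to 2 with 1 sample left out, and 7 and 1 on the FPKM scale. Genes called over the whole table numbered 7767 to 7895 with 1 wild-type sample left out and 9632 to 10982 with 1 mutant left out. They numbered 8830 to 10385 otherwise. Of called genes 52.2% were higher, against 36.8% with library size alone (3824 higher, 6561 lower, median log2 fold change -0.14) and 36.3% and 36.6% on the FPKM scales. The ratio of myelin to lineage sums in mutants relative to wild type was 0.704 in CPM and 0.753 in FPKM. Alternatives for this ratio and for effective length were added with the data in view. With the replicate number as a block 9575 genes were called, members stayed at 1 higher and 5 lower, and the list of other sheath proteins had 5 lower genes in place of 8, as it did with DESeq2. Same-numbered samples did not deviate together (r = -0.079, 0.058 and -0.049 across genes), and not every sample correlated best with its own number, so the numbers were not taken as pairs. Through the alternatives 70 called list genes were followed, including those chosen after their values were seen except gldn. Of these 57 kept their call in every alternative, 13 lost it in at least 1 and 0 changed sign. Most had been picked for the smallest p in their list and direction, which favours kept calls. The numbers therefore do not describe list calls in general.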
